A study of Mus musculus with 21 samples.

Results

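The mitochondrial ribosomal proteins are the genes whose symbols begin with Mrpl or Mrps and a digit, and 79 of the 16318 genes in the deposited table of SAMP8 mouse brain met this rule. Of these, 50 carry a large-subunit symbol (Mrpl) and 29 a small-subunit symbol (Mrps). The set holds 77 protein-coding genes and 2 processed pseudogenes, Mrpl23-ps1 and Mrpl48-ps. SAMP8 is a senescence-accelerated mouse strain with memory deficits, and every mouse was of this strain. HsTX1[R14A], a peptide that blocks Kv1.3, a potassium channel, was given under the skin to 9 mice (3 females and 6 males) at 1 mg/kg, on alternate days over 8 weeks, and phosphate-buffered saline (PBS) was given in the same way to 12 mice (6 females and 6 males). Dosing began at 4 months of age, and RNA of the whole brain was sequenced at 6 months, with 1 library per mouse. RNA of a whole brain mixes all its cell types, so that fewer cells of a type and less RNA per cell cannot be told apart.

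The mitochondrial ribosome makes the few respiratory chain proteins that mitochondrial DNA encodes. Its RNAs come from mitochondrial DNA, whereas every one of its proteins is encoded in the nucleus, made in the cytosol and imported. Some of these proteins have relatives in the bacterial ribosome and others exist only in mitochondria. Defects in them cause human disease of tissues that depend on respiration, the brain and heart among them.

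The promoters of the members were compared first. Windows running from 250 bases before to 50 bases after a start site were found in RefSeq (GRCm38.p6) for 68 of the 79 members, as 74 windows. They were searched on both strands for 6 motifs, and a match may overlap another. The letters GCGCANGCG, bound by NRF1, a regulator of nuclear genes for mitochondria, occurred in 21.6% of the members' windows and in 6.25% of all 32851 RefSeq windows. The latter were not limited to genes of the deposited table, so the comparison is not with the other genes measured here. The ETS motif CCGGAAG, bound by GABP, occurred in 33.8% against 8.86%, and the YY1 motif AAGATGGCG in 10.8% against 1.40%. The GC box GGGGCGG occurred in 37.8% against 23.2%, the E-box CACGTG in 9.46% against 7.15%, and the TATA motif TATAAA in 6.76% against 13.6%. Overlapping windows of Mrpl2 hold the same E-box and GC box and were each counted. By gene, an E-box was found for 5 and a GC box for 24 of the 68 members. The median GC content was 58.5% in the members' windows and 52.7% in all windows. The NRF1 letters were found for 12 of 42 large-subunit and 4 of 26 small-subunit members, and the ETS letters for 14 and 11 of them. A match is a run of letters, and binding was not measured.

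Promoters of 5 members are shown, 2 small-subunit members with the lowest fold changes (Mrps33 and Mrps21), the highest member of each subunit (Mrps27 and Mrpl37), and Mrps11, which lies head to head with the large-subunit member Mrpl46. Capitals mark matches to the 6 motifs, read on either strand. Mrps33 (chr6:39810887-39811186, minus strand) holds a GC box on each strand and an ETS motif, Mrps21 (chr3:95871465-95871764, minus strand) an NRF1 and an ETS motif, and Mrps27 (chr13:99344536-99344835, plus strand) an ETS and a YY1 motif. Mrpl37 (chr4:107066817-107067116, minus strand) holds an E-box, a GC box on each strand and a YY1 motif. Mrps11 (chr7:78782881-78783180, plus strand) holds a YY1 motif and a GC box, and its window overlaps that of Mrpl46 (chr7:78783040-78783339, minus strand).
Mrps33: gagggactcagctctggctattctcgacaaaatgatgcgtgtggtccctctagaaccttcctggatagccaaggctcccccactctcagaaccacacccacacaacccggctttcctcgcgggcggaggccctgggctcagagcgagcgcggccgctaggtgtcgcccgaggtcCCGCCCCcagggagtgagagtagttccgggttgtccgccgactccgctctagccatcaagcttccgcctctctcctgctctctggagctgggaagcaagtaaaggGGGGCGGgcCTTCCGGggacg
Mrps21: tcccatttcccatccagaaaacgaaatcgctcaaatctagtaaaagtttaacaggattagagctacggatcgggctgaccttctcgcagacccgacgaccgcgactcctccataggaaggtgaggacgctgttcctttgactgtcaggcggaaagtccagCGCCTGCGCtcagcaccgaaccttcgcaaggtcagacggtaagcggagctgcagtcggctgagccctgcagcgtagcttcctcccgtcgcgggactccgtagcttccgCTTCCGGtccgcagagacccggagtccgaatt
Mrps27: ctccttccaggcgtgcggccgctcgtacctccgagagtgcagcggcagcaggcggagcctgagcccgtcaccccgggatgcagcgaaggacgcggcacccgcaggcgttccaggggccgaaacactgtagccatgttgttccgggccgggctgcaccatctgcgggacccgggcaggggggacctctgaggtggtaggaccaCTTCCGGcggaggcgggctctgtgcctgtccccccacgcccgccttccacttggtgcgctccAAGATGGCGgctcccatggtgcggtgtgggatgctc
Mrpl37: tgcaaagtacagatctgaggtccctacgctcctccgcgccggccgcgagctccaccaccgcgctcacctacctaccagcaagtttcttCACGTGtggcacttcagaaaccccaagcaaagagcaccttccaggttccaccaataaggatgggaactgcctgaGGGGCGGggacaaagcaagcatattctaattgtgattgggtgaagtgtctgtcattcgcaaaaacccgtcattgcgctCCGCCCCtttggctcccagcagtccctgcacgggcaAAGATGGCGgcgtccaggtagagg
Mrps11: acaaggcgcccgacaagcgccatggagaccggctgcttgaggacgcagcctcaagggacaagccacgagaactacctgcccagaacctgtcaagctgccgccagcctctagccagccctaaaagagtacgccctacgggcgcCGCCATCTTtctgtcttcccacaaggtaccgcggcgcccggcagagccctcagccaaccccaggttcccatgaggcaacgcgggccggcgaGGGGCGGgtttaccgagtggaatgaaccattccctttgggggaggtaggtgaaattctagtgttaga

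Library totals ran from 14917174 to 47613792 counts, and the lowest count of a coding member in any mouse was 90. Markers of neurons summed to between 6064 and 9529 CPM (counts scaled to a common library size) in every mouse. Marker lists of other cell types are read against the 16.1% lower and 15.5% higher of all genes. Among oligodendrocyte markers 4 of 8 were lower in HsTX1[R14A]-treated mice, with sums from 4528 to 6887 CPM in PBS mice and from 3415 to 5047 CPM in treated mice. Lower levels were also called for 3 of 8 astrocyte markers (sums from 2984 to 4876 CPM in PBS mice and from 3172 to 4936 CPM in treated mice) and for 2 of 8 microglia markers (385 to 557 CPM and 329 to 487 CPM). Higher levels were called for 2 of 8 neuron and 1 of 6 endothelium markers. With the sexes together none of the 6 choroid plexus and 5 erythrocyte markers was called (edgeR; 0 of each at an unadjusted p under 0.05). In females alone 4 of the 5 erythrocyte markers were higher at an unadjusted p under 0.05 (edgeR; 0 called). Their median log2 fold change was 1.71 in females and -0.45 in males. Over mice, erythrocyte sums ran from 5.82 to 157 CPM and choroid plexus sums from 57.3 to 1122 CPM, so neither was even. The part of the marker lists in the results was not tested. The library names took 2 forms, one with 10 PBS and 5 treated mice and the other with 2 and 4.

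To see whether HsTX1[R14A] altered mRNAs of the mitochondrial ribosome, treated and PBS mice were compared. Of the 79 members, 39 were lower in HsTX1[R14A]-treated brains at a false discovery rate (FDR) of 0.05 (edgeR's quasi-likelihood test across 16303 genes, with sex in the model), which is 49.4%, against 16.1% of all genes tested. None was higher, against 15.5% of all genes (0 members at an unadjusted p under 0.05, and 0 by limma/voom and DESeq2). The log2 fold change was below 0 for 75 of 79 members, and its median was -0.36, a level 21.9% lower, where the median of all genes was -0.013. Among called members the log2 fold change ran from -0.70 to -0.22 and the adjusted p (edgeR) from 0.0151 to 0.0494. For 74 members at least 6 of the 9 treated mice lay below the median PBS mouse, and the ranges of the groups overlapped for all 79. These counts were not made over all genes, so neither is read as particular to the members. With the mice of the more common name form alone 0 members and 0% of all genes were called (28 members at an unadjusted p under 0.05, median log2 fold change -0.37), and with the 6 mice of the other form also 0 members and 0% of all genes (2 members at an unadjusted p under 0.05, median -0.22). Leaving out 1 mouse at a time gave between 9 members called lower, without PBS mouse 90 (6.32% of all genes), and 60, without HsTX1[R14A] mouse 93 (20.5% of all genes), and low counts also followed without PBS mice 73 and 101 (19 and 21) and without treated mice 71, 72, 98, 74, 81 and 88 (14, 16, 13, 21, 18 and 15). Of the 39 called members, 9 were called in each of the 21 fits without 1 mouse (Mrpl23, Mrpl41, Mrpl55, Mrps9, Mrps10, Mrps15, Mrps18b, Mrps21 and Mrps33). Apart from the fits without PBS mouse 90 and without treated mouse 93, shares of all genes were not computed for the fits without 1 mouse. Whether the lost or kept calls were particular to the members cannot be told from these counts.

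**Figure D1:**
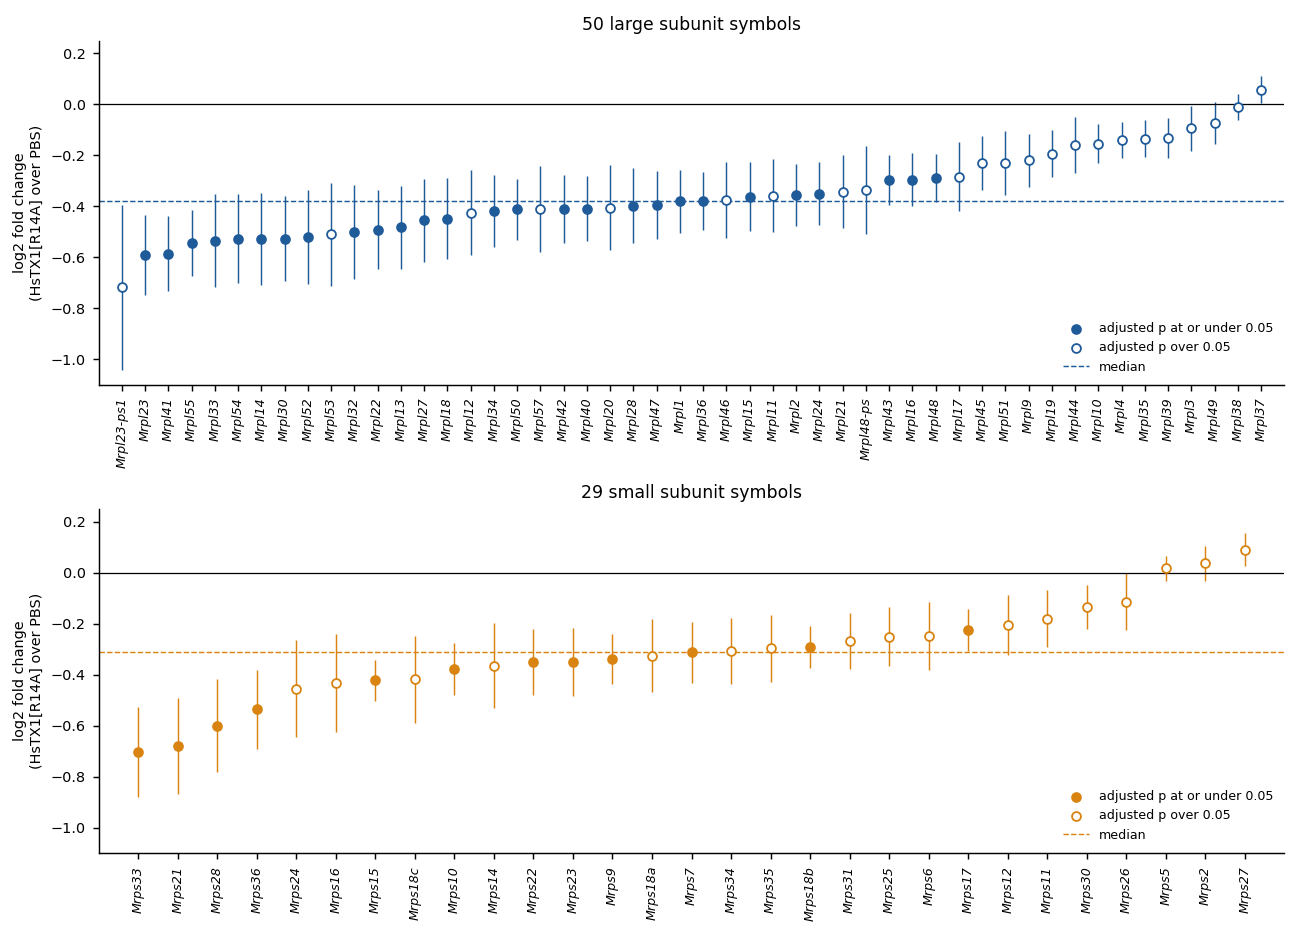
Treatment log2 fold change (HsTX1[R14A] over PBS) with its standard error for each of the 50 large-subunit (top) and 29 small-subunit (bottom) symbols, ordered by value, where filled points mark an adjusted p at or under 0.05 and the dashed line the median. Nearly all points lie below 0, with medians of -0.38 and -0.31, and the filled points are 27 above and 12 below.

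Both subunits were lower, with 27 of 50 large-subunit symbols (54%) and 12 of 29 small-subunit symbols (41.4%) called lower. Of all genes tested 16.1% were called lower, and the counts below are read against that share. The median log2 fold change was -0.38 for the large and -0.31 for the small subunit, levels 23.1% and 19.5% lower, and the medians differed by -0.066. With the proteins sorted by where they sit in the ribosome, in place of their symbols, the counts were 27 of 50 and 11 of 26. Proteins with bacterial relatives and proteins found only in mitochondria were called lower in 19 of 30 and 8 of 20 cases in the large subunit, with median log2 fold changes of -0.39 and -0.31. In the small subunit the counts were 7 of 16 and 4 of 10, with medians of -0.35 and -0.29. The classes also differed in length, with median longest transcripts of 1732.5 and 1939 bases in the large subunit. In the small subunit these were 1538.5 and 2254.5 bases. The part of length in the difference between the classes was not tested.

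Among the small-subunit members, Mrps33, found only in mitochondria, had the lowest log2 fold change. Its level had a lowest value of 58.3 CPM, a median of 89.6 CPM and a highest value of 158 CPM in PBS mice, and 45.1, 55.8 and 94.3 CPM in treated mice. Treated mouse 93 lay above the median PBS mouse and the other 8 treated mice below it. The log2 fold change was -0.70 (standard error 0.18, adjusted p = 0.0170, edgeR). Mrps21, a relative of a bacterial small-subunit protein, ran from 36.8 CPM over a median of 61.8 CPM to 112 CPM in PBS mice and from 29.2 CPM over 40.8 CPM to 70.2 CPM in treated mice, with 8 of 9 treated mice below the PBS median. Its log2 fold change was -0.68 (standard error 0.19, adjusted p = 0.0195, edgeR). Mrps28 ran from 6.24 CPM over 9.20 CPM to 17.5 CPM in PBS mice and from 5.23 CPM over 6.40 CPM to 10.6 CPM in treated mice (log2 fold change -0.60, adjusted p = 0.0239). Mrps24, whose exons overlap those of Urgcp on the same strand, had a log2 fold change of -0.46 and did not pass (adjusted p = 0.0679). The highest mouse was often the same, since treated mouse 93 was the highest of the treated mice for 71 of the 79 members and PBS mouse 103 the highest of the PBS mice for 62.

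Of the small-subunit proteins with a known role or disease link, Mrps7, of the subunit's head, was lower, with a log2 fold change of -0.31 (adjusted p = 0.0486; not called by limma/voom or RLE scaling, and called in 7 of 21 fits without 1 mouse), and levels of 29.7, 38.5 and 59.0 CPM (lowest, median and highest) in PBS mice and 27.5, 32.2 and 47.1 CPM in treated mice. Mrps12, at the decoding site, had a log2 fold change of -0.21 (adjusted p = 0.174), with 8 of 9 treated mice below the PBS median. Mrps16, the first mitochondrial ribosomal protein found mutated in human disease, had a value of -0.43 (adjusted p = 0.0825), and levels of 11.9, 17.8 and 38.2 CPM in PBS mice against 8.89, 14 and 22.4 CPM in treated mice. Mrps22, a mitochondria-specific protein mutated in human disease, was lower (-0.35, adjusted p = 0.0455, called in 10 of 21 fits without 1 mouse). Mrps34, mutated in Leigh syndrome and overlapping Nme3 on the same strand, had a value of -0.31 and did not pass (adjusted p = 0.0705). Mrps15, a conserved protein of the small subunit, was outside the rule for naming and was chosen after its values were seen, since its p was the smallest of all members. It ran from 28.4 CPM over 33.5 CPM to 43.4 CPM in PBS mice and from 23.8 CPM over 25.7 CPM to 33.7 CPM in treated mice, and 8 of 9 treated mice lay below every PBS mouse. The log2 fold change was -0.42 (standard error 0.080, adjusted p = 0.0151, edgeR).

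Among the large-subunit members, Mrpl23, a conserved protein beside the exit of the peptide tunnel, had the lowest log2 fold change of the coding genes. Its levels were 23.1, 33.2 and 61.0 CPM (lowest, median and highest) in PBS mice and 18, 24.2 and 36.6 CPM in treated mice, and the log2 fold change was -0.59 (standard error 0.16, adjusted p = 0.0181, edgeR). The pseudogene Mrpl23-ps1 had a lower value still, -0.72 (standard error 0.32, adjusted p = 0.0878), on 8 to 71 counts per mouse, and since it resembles Mrpl23 the split of reads between them is uncertain. Mrpl41, found only in mitochondria, was below the PBS median in all 9 treated mice, with 28.6, 43.0 and 71.0 CPM in PBS mice and 24.2, 29.6 and 42.6 CPM in treated mice (log2 fold change -0.59, adjusted p = 0.0170). Mrpl55 had 9.33, 12.2 and 20.1 CPM in PBS mice and 7.47, 8.73 and 13.3 CPM in treated mice (-0.54, adjusted p = 0.0161), and Mrpl33 had a log2 fold change of -0.53 (adjusted p = 0.0341).

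Proteins at the working sites of the large subunit fell on both sides of the threshold. Mrpl2, a core protein that binds the large rRNA, was lower (-0.36, adjusted p = 0.0340), as was Mrpl27, whose end reaches into the peptidyl transferase centre (-0.45, adjusted p = 0.0395), and Mrpl3, a core protein near that centre, had a log2 fold change of -0.094 (adjusted p = 0.413). Mrpl1, of the stalk by which tRNA leaves, was lower (-0.38, adjusted p = 0.0294). Of the 21 fits without 1 mouse, Mrpl2 was called in 12, Mrpl27 in 11, Mrpl1 in 15 and Mrpl33 in 12. In the stalk to which translation factors bind, Mrpl12 had -0.42 (adjusted p = 0.0570), Mrpl11 at the stalk base -0.36 (adjusted p = 0.0602) and Mrpl10, which anchors Mrpl12, -0.15 (adjusted p = 0.120), so that none of these passed. Mrpl45, which ties the ribosome to the inner membrane, had -0.23 (adjusted p = 0.0939), and Mrpl44, an RNase III-like protein mutated in infantile cardiomyopathy, -0.16 (adjusted p = 0.256). Mrpl3 overlaps the exons of Gm38077 on its strand.

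A few members stood apart from the rest in size. Mrps27, a pentatricopeptide repeat protein, had 16.6, 18 and 23 CPM (lowest, median and highest) in PBS mice and 17.5, 19.7 and 22.1 CPM in treated mice, with 1 of 9 treated mice below the PBS median. Its log2 fold change was 0.091 (standard error 0.063, adjusted p = 0.261, edgeR). Mrps27 was called higher with sample quality weights, as were 18% of all genes. It was also called higher with the length and GC trend removed (0.23, adjusted p = 0.0152, edgeR), as were 10.1% of all genes. Mrpl37 had 28.5, 30.8 and 35.6 CPM in PBS mice and 30.2, 31.9 and 35.2 CPM in treated mice, again with 1 of 9 treated mice below the PBS median (log2 fold change 0.058, adjusted p = 0.388). Mrps2 had a log2 fold change of 0.037 (adjusted p = 0.689), Mrps5, a gene whose lower expression went with longer life in mice, 0.017 (adjusted p = 0.796), Mrpl38 -0.0089 (adjusted p = 0.904) and Mrpl49 -0.073 (adjusted p = 0.493). The 5 members with the highest log2 fold changes were also the 5 that varied least among PBS mice, with standard deviations of log2 CPM from 0.097 to 0.14, where the median over members was 0.33 and the highest 0.76. Across the 79 members the log2 fold change and this standard deviation had a Spearman rho of -0.87, as a description over genes that share the same libraries.

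**Figure D2:**
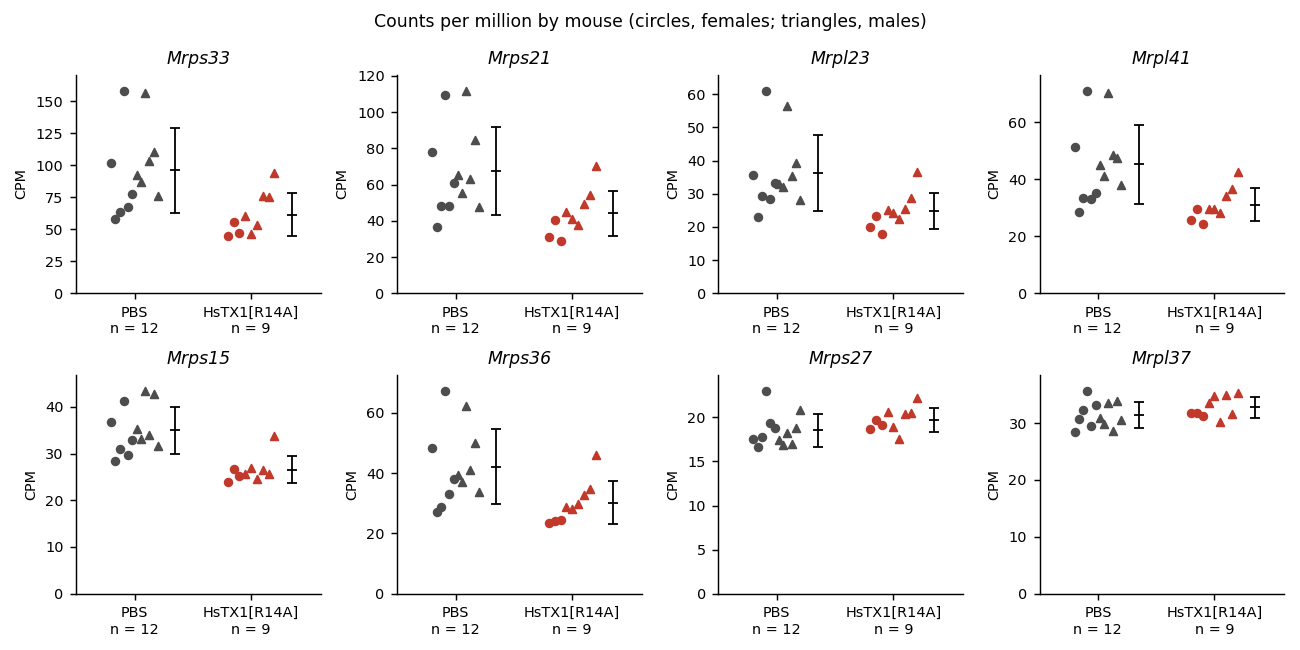
CPM of 8 members in each mouse, with circles for females, triangles for males, and bars for the mean and standard deviation of 12 PBS and 9 HsTX1[R14A]-treated mice. Mrps33, Mrps21, Mrpl23, Mrpl41, Mrps15 and Mrps36 are lower in treated mice with overlapping ranges, and Mrps27 and Mrpl37 lie at like levels in both.

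For members whose symbol does not give their place, Mrps30 and Mrps18a sit in the large subunit in spite of their names. Mrps30 had a log2 fold change of -0.14 (adjusted p = 0.219), and Mrps18a of -0.33 (adjusted p = 0.0828), and neither passed. Mrps36 is a subunit of the 2-oxoglutarate dehydrogenase complex and not of the ribosome. Its levels were 27.1, 38.8 and 67.2 CPM (lowest, median and highest) in PBS mice and 23.4, 28.8 and 46.0 CPM in treated mice, and it was lower (log2 fold change -0.54, standard error 0.16, adjusted p = 0.0214, edgeR). The head-to-head pair, named for its position and outside the rule for naming, had log2 fold changes of -0.37 for Mrpl46 (adjusted p = 0.0559) and -0.18 for Mrps11 (adjusted p = 0.208), and the annotated genes overlap on opposite strands. The shares with NRF1 letters in the promoter were 7 of 35 among members called lower and 9 of 33 among the others, those with ETS letters 13 and 12, those with YY1 letters 2 and 6, those with a GC box 15 and 9, those with an E-box 2 and 3, and those with TATA letters 3 and 2.

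The subunits were then followed mouse by mouse. For the score of a subunit, log2 CPM of each gene was centered over the 21 mice and averaged over genes. Large-subunit scores ran from -0.32 to 0.75 in PBS mice (median 0.034) and from -0.43 to 0.32 in treated mice (median -0.26), with 8 of 9 treated mice below the PBS median. Small-subunit scores ran from -0.29 to 0.65 (median 0.026) and from -0.38 to 0.31 (median -0.25), with 7 of 9 below. Within a mouse the scores of the subunits differed by at most 0.10, where the large-subunit scores spanned 1.18 over mice. The large minus small score ran from -0.027 to 0.10 in PBS mice and from -0.057 to 0.015 in treated mice, so that the groups overlapped. Each of the 3 treated females, from -0.43 to -0.28 in the large subunit, lay below at least 5 of the 6 PBS females.

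**Figure D3:**
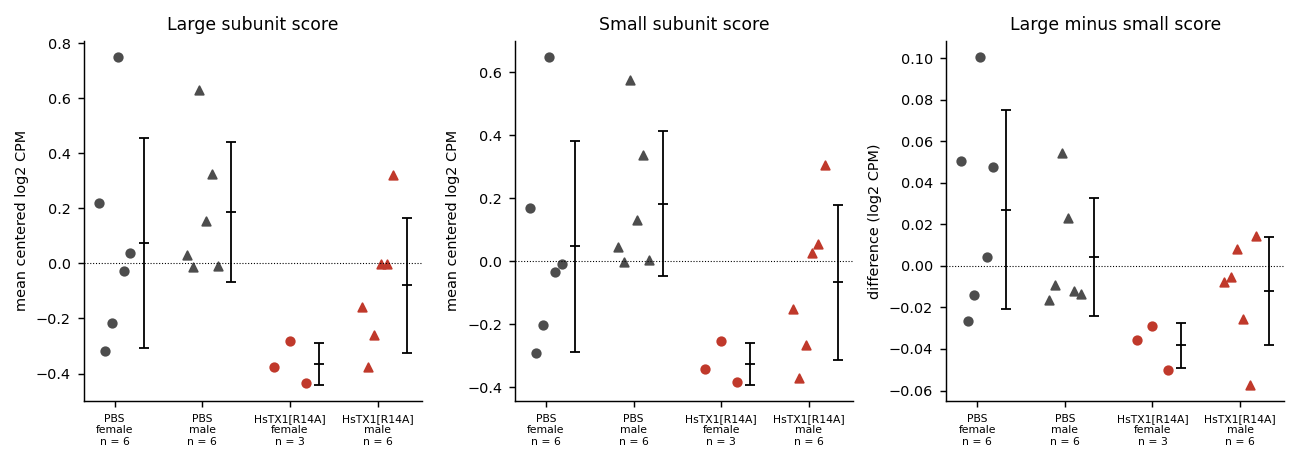
Large-subunit score, small-subunit score and their difference in each mouse, by treatment and sex, with bars for the mean and standard deviation. The same mice are high or low in the left and middle panels, PBS mouse 103 the highest at 0.75 and 0.65, and the difference on the right spans a range from -0.057 to 0.10.

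Levels between genes were compared per kilobase of the longest transcript. In PBS mice the median member had 16.7 CPM per kilobase in the large and 13.5 in the small subunit, a ratio of 1.24, where the median of all genes with a length was 4.97. The highest large-subunit levels per kilobase were those of Mrpl20 (64.3 ± 20.9, SD, n = 12), Mrpl41 (58.3 ± 17.7) and Mrpl14 (53.8 ± 18.8), whose means lay within 1 SD of each other. Mrpl20 was above Mrpl41, and Mrpl41 above Mrpl14, in 9 of 12 PBS mice each, and Mrpl20 above Mrpl14 in 12 of 12. Among the small-subunit symbols Mrps21 led (138 ± 49.5), before Mrps33 (86.7 ± 29.7) and Mrps36 (60.2 ± 18), which is not a ribosomal protein. This order held in 12 of 12 PBS mice, and the means of Mrps21 and Mrps36 differed by more than either SD. Among the large-subunit symbols the lowest levels per kilobase were those of the pseudogene Mrpl23-ps1 (2.03 ± 1.29), Mrpl17 (4.08 ± 1.10) and Mrpl1 (5.79 ± 1.31). Among the small-subunit symbols they were those of Mrps35 (3.85 ± 0.898), Mrps30 (6.21 ± 0.897), which sits in the large subunit, and Mrps22 (6.24 ± 1.52). With the median transcript length in place of the longest, Mrpl17 moved from rank 49 to rank 29 of 50 and Mrps35 from rank 29 to rank 16 of 29, so that these low levels rest on long transcripts of the annotation. Summed per kilobase, the large-to-small ratio ran from 1.45 to 1.58 over PBS mice and from 1.52 to 1.59 over treated mice.

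Transcript length moved with these results. The members' longest transcripts had a median of 1764 bases, where that of all tested genes was 3284, and 60 of 79 members were shorter than the latter. The 27 shortest members (up to 1134 bases) had a median log2 fold change of -0.45, the 26 of middle length -0.31 and the 26 longest (over 2741 bases) -0.30, with 17, 10 and 12 called lower. Log2 fold change and length had a Spearman rho of 0.48 over the members and 0.51 over 16224 genes, as a description of genes that share libraries. Each library's length slope, the slope of centered log2 CPM on log2 length over all genes, ran from -0.38 to 0.15 in PBS mice and from -0.14 to 0.23 in treated mice. The 8 mice with the highest scores over all members were the 8 with the lowest length slopes, and the 8 with the lowest scores were the 8 with the highest slopes.

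**Figure D4:**
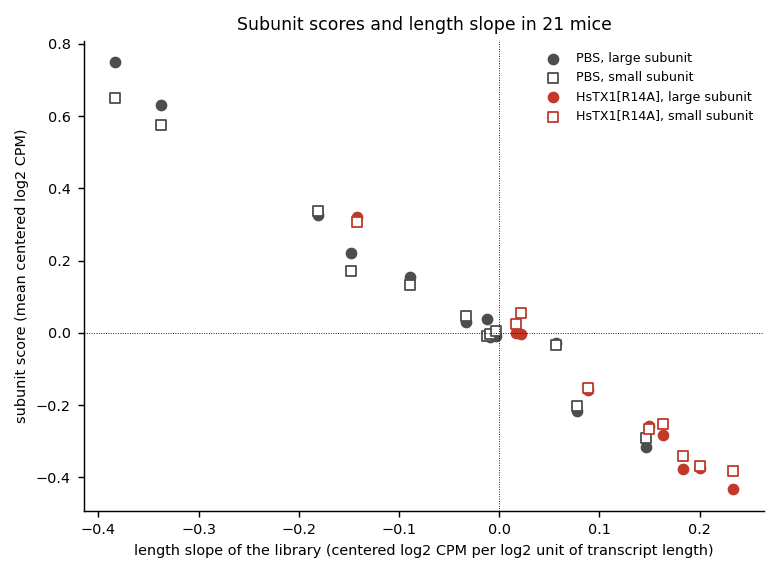
Subunit scores (mean centered log2 CPM) against the length slope of the library (centered log2 CPM per log2 unit of transcript length) in 21 mice, with filled circles for the large and open squares for the small subunit, grey for PBS and red for HsTX1[R14A]. Scores descend from 0.75 at a slope of -0.38 to -0.43 at a slope of 0.23 in 1 band that holds both groups.

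With the length slope as a covariate, 0 members and 0% of all genes were called (for the members, 3 lower and 14 higher at an unadjusted p under 0.05, edgeR), 20 of 79 log2 fold changes were below 0, and the median was 0.056. The difference in the large-subunit score between treated and PBS mice was -0.33 with sex in the model and 0.046 with sex and the length slope, and that of the small-subunit score -0.30 and 0.047. With each library's trend on length and GC content removed, 7 members were called lower (Mrpl23, Mrpl41, Mrpl48, Mrpl55, Mrps10, Mrps15 and Mrps33, named from their values under this setting), against 6.42% of all genes, and 1 higher (Mrps27), against 10.1%. The median log2 fold change was then -0.14 in the large and -0.16 in the small subunit, so that the order of the subunits turned. Mrps33 had -0.30 (adjusted p = 0.0209), Mrps15 -0.16 (adjusted p = 0.0374) and Mrpl41 -0.18 (adjusted p = 0.0396) under this setting. Log2 fold change and length then had a Spearman rho of -0.40 over the members and 0.11 over all genes. The 27 shortest, 26 middle and 26 longest members had medians of -0.11, -0.10 and -0.24, with 4, 0 and 3 called lower. Mrpl23 (longest transcript 3715 bases, median 693) had -0.80 under this setting and -0.59 without it. The members thus kept a length trend, of opposite sign, and its part in the 7 calls and the subunit order was not tested. The length slope differs between the treatment groups, and how much of the members' change belongs to each cannot be told apart in these libraries.

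**Figure D5:**
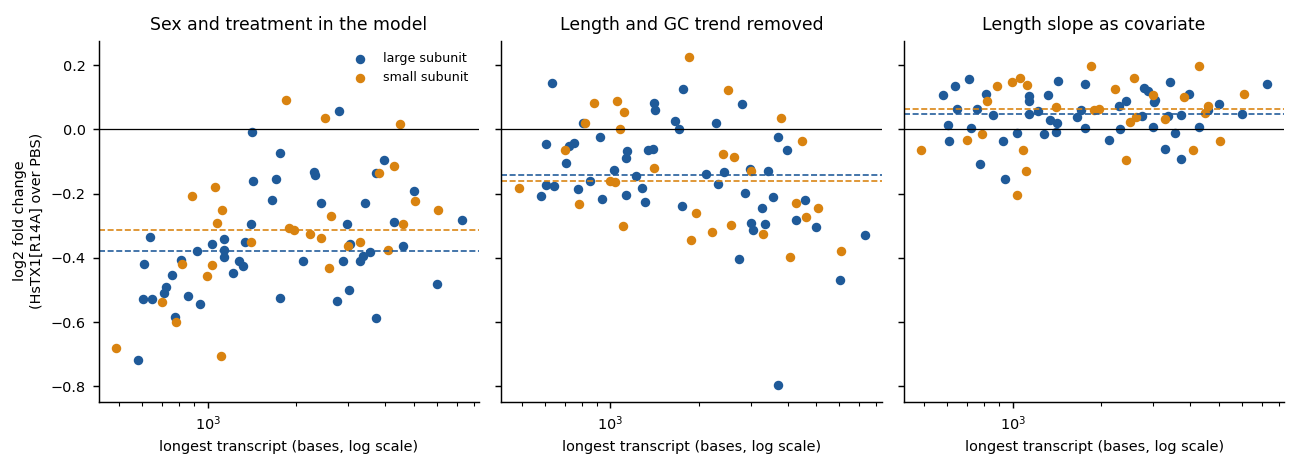
Treatment log2 fold change (HsTX1[R14A] over PBS) against the longest transcript (bases, log scale) of each member, in the model with sex and treatment, with each library's length and GC trend removed, and with the length slope as a covariate, with dashed lines at the subunit medians. The medians move from -0.38 (large) and -0.31 (small) to -0.14 and -0.16 and then to 0.048 and 0.064.

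Females and males were compared next. No member was called for sex (0 of 79 against 0.0552% of all genes, edgeR; 4 at an unadjusted p under 0.05, and 0 by limma/voom and DESeq2), although 76 of 79 log2 fold changes of males over females were above 0, with a median of 0.18. The smallest p was that of Mrpl36, a conserved large-subunit protein, where the value was 0.32 on the log2 scale (standard error 0.11, adjusted p = 0.446, edgeR), followed by Mrpl16 at 0.25 (standard error 0.11, adjusted p = 0.446). With sample quality weights 34 members were called higher in males, against 8.19% of all genes. The members' median log2 fold change of males over females was 0.11 with the length and GC trend removed, 0.042 with 1 surrogate variable and 0.012 with the length slope as a covariate.

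The effect of treatment was not shown to differ by sex. In no member did the treatment by sex interaction pass (0 of 79 against 0% of all genes; 1 at an unadjusted p under 0.05, and 0 by limma/voom and DESeq2), the smallest p being that of Mrpl4 (0.29, male minus female log2 fold change, adjusted p = 1.00) and the next that of Mrpl34 (0.45, adjusted p = 1.00). In males alone 0 members were called lower (0% of all genes; 13 at an unadjusted p under 0.05, 0 by limma/voom and 1 by DESeq2, which called 0.7% of all genes lower), with a median log2 fold change of -0.26. In females alone 0 were called lower (0% of all genes; 48 at an unadjusted p under 0.05, and 0 by limma/voom and DESeq2), with a median of -0.45 from 3 treated and 6 PBS mice. With the length and GC trend removed the medians were -0.087 in males and -0.22 in females. With the length slope as a covariate they were 0.071 and 0.035.

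Other genes of mitochondrial translation were read from lists of fixed membership, against the 16.1% lower and 15.5% higher of all genes. Of 6 ribosomal proteins with other symbols, 4 were lower and 0 higher, led by Ptcd3, a small-subunit protein (-0.33, adjusted p = 0.0151), and Ict1, named Mrpl58 in GENCODE, which frees stalled ribosomes (-0.35, adjusted p = 0.0234). Counts of both RNAs of the ribosome itself were lower, mt-Rnr1 with a log2 fold change of -0.98 (adjusted p = 0.0165) and mt-Rnr2 with -0.98 (adjusted p = 0.0156). Whether such counts follow the amount of RNA in the ribosome was not tested. Of 13 mitochondrially encoded mRNAs, its templates, 12 were lower, among them mt-Co2 (-1.04, adjusted p = 0.0151) and mt-Co1 (-0.85, adjusted p = 0.0151), subunits of cytochrome c oxidase. Of 20 assembly factors found in the table, 6 were lower and 1 higher, with Gtpbp10, a GTPase of large-subunit assembly (-0.45, adjusted p = 0.0170), and Mterf3 (-0.41, adjusted p = 0.0175) lower.

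The lists of soluble factors had calls in both directions, with shares near the 16.1% lower and 15.5% higher of all genes. Of 16 translation factors, 2 were lower, among them Mtrf1, a release factor (-0.61, adjusted p = 0.0154), and 3 higher, among them Lrpprc, which stabilises mitochondrial mRNAs (0.44, adjusted p = 0.0163). Of 20 mitochondrial aminoacyl-tRNA synthetases and related enzymes, which charge tRNAs, 2 were lower and 3 higher, including Aars2 (0.40, adjusted p = 0.0277) and Vars2 (0.44, adjusted p = 0.0290). The median log2 fold change was -0.057 in the former list and 0.0047 in the latter, and their median longest transcripts were 2623 and 3418 bases. Among lists of short transcripts, 73 of 83 cytosolic ribosomal protein genes were lower and 0 higher, with a median log2 fold change of -0.67 and a median length of 1059 bases, and Rps26 at -0.69 (adjusted p = 0.0151) and Rps3a2 at -0.71 (adjusted p = 0.0151). Of 36 nuclear-encoded subunits of complex I, 25 were lower and 0 higher, with a median of -0.49 at 1026 bases, among them Ndufv3 (-0.55, adjusted p = 0.0151) and Ndufb3 (-0.53, adjusted p = 0.0182). All adjusted p-values here are from the same edgeR fit. With the length slope as a covariate 0 genes of these lists and 0% of all genes were called (edgeR; 11 of the cytosolic ribosomal, 4 of the complex I and 6 of the mitochondrially encoded mRNAs at an unadjusted p under 0.05), and their median log2 fold changes were -0.027, 0.031 and -0.41. With the length and GC trend removed 39, 7 and 5 of them were called lower, against 6.42% of all genes, and 1 complex I gene higher, against 10.1%.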

How the data were processed

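Whole-brain RNA of 21 SAMP8 mice was sequenced, with 1 library per mouse. Alignment by the authors was to GRCm38 with STAR, with Salmon for quantification, and the deposited values are estimated counts per gene, not normalized. They were rounded to whole numbers. The study's methods name a directional library kit and the labels another kit, so strand use is uncertain for overlapping genes. Columns of the authors' own log2 fold changes and p-values were not used, and 53 other per-sample columns were not used. Library totals ran from 14917174 to 47613792 counts, and the spread between mice limits the precision more than the sampling of reads. Over the 48 pairs of mice of 1 group, the mean chi-square per gene was at least 7.58, above sampling noise in every pair, and all libraries were counted as separate samples.

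filterByExpr kept 16303 genes, which after TMM scaling were tested in R 4.3.3 with edgeR 4.0.16 (glmQLFit and glmQLFTest) in a model with sex and treatment, with Benjamini-Hochberg adjustment over all genes (FDR 0.05). The standard error was taken as the size of the log2 fold change divided by the square root of F. CPM values are TMM-scaled, and log2 CPM carries a prior count of 2. Transcript lengths and exon overlaps came from GENCODE for GRCm38 and promoters from RefSeq. Alternatives were limma/voom (limma 3.58.1), DESeq2 1.42.0, RLE scaling, other count filters (none beyond 1 count, or 10 or more counts in each mouse), a model without sex, the form of the library name as a covariate or alone, sample quality weights, 1 surrogate variable (sva 3.50.0), a per-library loess fit on length and GC content (span 0.5) taken out, the length slope as a covariate, other sorting of the subunits, and each mouse left out. Leaving out the 2 pseudogenes was chosen after seeing the data. The procedure was tested on simulated counts, drawn for each gene on its own. These held no trend on transcript length, so they cannot show how the calls behave under one.

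The members and lists were chosen with earlier results of these data known. Members were named by rule, as the 5 lowest and 3 highest log2 fold changes of each subunit, the 3 highest and 3 lowest levels per length, those with the smallest p for sex and interaction, those with a known role, and at most 2 genes of each other list.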

Additional observations from a re-analysis of the deposited data

Results flagged for a closer look

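Each named member and 4 subunit scores or ratios were examined by Dixon's test in the 3 groups of 6 mice, 132 sets of values in all, for a mouse far from the others. In 25 sets a mouse stood apart, each time as the highest. Chance gives about 5% for a single set, but the sets share the same libraries and their genes move together. The 25 of 132 therefore cannot be held against that 5%. In PBS females, mouse 103 stood above the others for 15 members. Its levels were 59.8 CPM for Mrpl11, 111 CPM for Mrpl12, 28.5 CPM for Mrpl16, 49.2 CPM for Mrpl17, 86.6 CPM for Mrpl20, 61.0 CPM for Mrpl23, 2.77 CPM for Mrpl23-ps1 and 38.2 CPM for Mrpl33. It also had 27.7 CPM for Mrpl44, 18.4 CPM for Mrpl55, 38.2 CPM for Mrps16, 89.1 CPM for Mrps18a, 31.4 CPM for Mrps22, 54.8 CPM for Mrps24 and 44.4 CPM for Mrps34. In PBS males, mouse 90 stood above the others for 6 members, with 93.9 CPM for Mrpl12, 54.8 CPM for Mrpl14, 2.60 CPM for Mrpl23-ps1, 51.1 CPM for Mrpl27, 70.3 CPM for Mrpl41 and 28.6 CPM for Mrps22. In HsTX1[R14A]-treated males, mouse 93 stood above the others for 4 members, with 38.6 CPM for Mrpl27, 54.3 CPM for Mrpl49, 56.2 CPM for Mrps12 and 46.0 CPM for Mrps36. These 3 mice had length slopes of -0.38, -0.34 and -0.14, and mouse 103 had the smallest library total. The part of the length slope in these values was not tested.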

How the results depend on the processing

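The members' median log2 fold change stayed below 0 under each alternative run except the length slope as a covariate, where it was 0.056. Of the 39 members called lower (27 large and 12 small), 15 were called without the sex term (7 large), 8 with the name form as a covariate (3 large, 5 small), 0 within either name form alone (0 large, 0 small), 8 with 1 surrogate variable (4 and 4), 7 with the length and GC trend removed (4 and 3) and 0 with the length slope as a covariate. Lower calls over all genes fell in the same fits, from 16.1% to 9.54%, 6.28%, 0%, 3.64%, 6.42% and 0%. The fits within 1 name form hold fewer mice, and for the other settings the cause was not tested. Without 1 mouse at a time the count ran from 9 to 60, from 3 to 39 for the large and from 6 to 21 for the small subunit, lowest without PBS mouse 90 and highest without HsTX1[R14A] mouse 93. One member, Mrps27, was called higher with quality weights and with the trend removed (1 and 1), against 18% and 10.1% of all genes. The large minus small median of -0.066 moved to -0.020 within the 6 mice of the less common name form, to 0.021 with the trend removed and to -0.016 with the length slope. With quality weights 34 members were called for sex (8.19% of all genes higher in males), and for treatment 7 were lower in males (4.91% of all genes) and 5 in females (3.56%). In males 1 was lower by DESeq2 (0.7%) and 4 with 1 surrogate variable (0.54%). The large-to-small ratio of median levels per length was 1.14 with median transcripts. With the length slope, members called lower that turned above 0 included Mrpl27 (0.065), Mrpl33 (0.043), Mrps22 (0.031), Mrps7 (0.064), Mrpl14 (0.063) and Mrpl16 (0.0077). Under that setting only 20 of all 79 log2 fold changes were below 0. Leaving out the 2 pseudogenes left the numbers called at 39 and 27, of 77 and 48 members, with 73 of 77 log2 fold changes below 0. No paired analysis was possible because mouse numbers are unique to each mouse. The lowest count in any mouse was 90 for a coding member and 8 for the pseudogene Mrpl23-ps1.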
